A study of Mus musculus with 8 samples.

Results

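Fibrinogen and the urokinase system were followed in mouse renal proximal tubules after cisplatin through 6 genes: the fibrinogen chain genes Fga, Fgb and Fgg, the urokinase receptor gene Plaur, and the plasminogen activator genes Plau and Plat. The genes were selected on their FPKM (fragments per kilobase of gene, scaled to the mapped depth) across the 4 times, so their own values are given as a description, without a test. Of the 6 genes, 5 had a row of their own among the 21874 gene rows of the expression table. Fga had none and lay in a row shared with Plrg1, a splicing factor gene.

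The mice were male C57BL/6 animals given cisplatin, a platinum drug toxic to this part of the nephron, at 30 mg/kg into the peritoneum. Renal cortex was taken at 0, 24, 48 or 72 h, proximal tubular cells were isolated from it, and total RNA was depleted of ribosomal RNA. Each time had 2 libraries, called a and b here. The labels carry the same treatment text for the 0 h libraries and do not say whether those mice were injected. In such bulk samples, fewer cells of a type and less RNA per cell cannot be told apart. Proximal tubule markers were high at 0 h and lower at every later time: 14 of 14 had both libraries below both 0 h libraries. Of all rows with 1 FPKM in 2 or more libraries, 48.3% lay below in that way at 24 h, 49.9% at 48 h and 40.2% at 72 h. The summed FPKM of the 14 markers went from 20549 and 23027 at 0 h to 8477 and 8202 after 72 h. Most of these sums came from Kap, and without it, left out after the values were seen, the other 13 summed to 7380 and 7938 FPKM at 0 h and 998 and 1007 after 72 h. Summed FPKM over all rows ranged from 314173 to 452114 per library, and the depth of the libraries is unknown because FPKM do not keep it.

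Fibrinogen is a secreted glycoprotein built from pairs of α, β and γ chains, encoded by Fga, Fgb and Fgg, which lie side by side in the genome. Thrombin cuts it into fibrin, the scaffold of a clot, and hepatocytes are its main source, with synthesis raised by interleukin 6 through STAT3 in the acute phase response. Plasmin, which dissolves fibrin, is cut from plasminogen by urokinase (Plau) or by tissue plasminogen activator (Plat). Urokinase acts at the cell surface when held by its receptor (Plaur), and tissue plasminogen activator acts mainly on fibrin. In the normal kidney, urokinase is made by tubule cells and released into urine.

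The 250 bases before the start given for Fga, Fgb, Fgg and Plaur in a table of RefSeq promoters (assembly GRCm38.p6) are shown. Plaur was chosen because it was high from 24 h. The fibrinogen genes were chosen because Fgg, Fgb and the row shared by Fga and Plrg1 were high at 72 h. Plau and Plat were not matched in the promoter table. Searched on both strands were a STAT motif TTCNNNGAA, the interleukin 6 element CTGGGAA, a C/EBP motif TTGCNNAA, an AP-1 motif TGANTCA, the TATA box TATAAA and the CCAAT box. Capitals mark matches, and no match overlaps another. The Fga window is chr3:83025903-83026152 on the plus strand, that of Fgb chr3:83049864-83050113 on the minus strand, that of Fgg chr3:83007474-83007723 on the plus strand and that of Plaur chr7:24462233-24462482 on the plus strand, and each is printed 5′ to 3′ along its gene.
Fga: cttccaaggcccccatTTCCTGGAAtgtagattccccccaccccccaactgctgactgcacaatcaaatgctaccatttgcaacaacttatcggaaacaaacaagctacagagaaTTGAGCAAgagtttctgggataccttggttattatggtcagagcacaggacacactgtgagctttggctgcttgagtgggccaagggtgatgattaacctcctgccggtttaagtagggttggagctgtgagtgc
Fgb: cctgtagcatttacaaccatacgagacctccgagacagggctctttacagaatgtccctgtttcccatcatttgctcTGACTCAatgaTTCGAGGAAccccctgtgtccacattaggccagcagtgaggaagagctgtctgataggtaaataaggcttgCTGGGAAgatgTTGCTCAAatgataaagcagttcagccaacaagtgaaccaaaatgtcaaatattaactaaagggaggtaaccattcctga
Fgg: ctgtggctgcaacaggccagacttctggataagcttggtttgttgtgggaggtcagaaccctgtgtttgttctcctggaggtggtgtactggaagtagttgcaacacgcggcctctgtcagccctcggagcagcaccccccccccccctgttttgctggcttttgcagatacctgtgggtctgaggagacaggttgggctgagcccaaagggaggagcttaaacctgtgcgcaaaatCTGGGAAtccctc
Plaur: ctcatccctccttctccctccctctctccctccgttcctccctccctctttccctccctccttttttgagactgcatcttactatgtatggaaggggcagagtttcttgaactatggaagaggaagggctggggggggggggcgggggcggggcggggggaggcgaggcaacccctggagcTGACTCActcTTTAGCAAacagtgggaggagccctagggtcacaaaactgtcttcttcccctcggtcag
The Plaur window lies inside both the deposited Plaur row and the RefSeq span of the gene, since the start in the promoter table is 1546 bases past the first base of that span; the distances for Plaur below count from the table's start.

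The Fgb window held 4 matches: AP-1 at 173 to 167 bases before the start, STAT at 162 to 154, the interleukin 6 element at 91 to 85 and C/EBP at 80 to 73. In the Fga window a STAT match lay at 234 to 226, with C/EBP at 135 to 128 on the opposite strand. Fgg held 1 match, the interleukin 6 element at 13 to 7 bases before the start. Plaur held an AP-1 match at 69 to 63 and, on the opposite strand, a C/EBP match at 59 to 52. These letters were common: of 32851 windows of this length, 7.02% held the STAT motif, 9.1% the interleukin 6 element, 9.56% the C/EBP motif and 6.75% the AP-1 motif. The TATA box (12.4% of windows) and the CCAAT box (letters CCAAT, 33.8%) were in none of the 4 windows. A match is a run of letters and does not show a bound site.

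Fgg and Fgb were low through 48 h and far higher at 72 h. Fgg, the γ chain gene (ENSMUSG00000033860, chr3:83007724-83015057, plus strand), had FPKM of 1.67 and 3.39 at 0 h in libraries a and b. Its FPKM were 1.28 and 1.26 after 24 h, 4.18 and 4.58 after 48 h, and 79.9 and 81.2 after 72 h. The 72 h libraries stood above all others without overlap, and the 0 h libraries differed from each other more than any later pair. Mean FPKM were 2.53 ± 1.21 at 0 h and 80.5 ± 0.892 at 72 h (SD, n = 2), a ratio of 31.9, and the ratio between 72 and 48 h was 18.4. On the log2(FPKM + 1) scale, on which all differences below are given and which understates the change of low genes, Fgg was 4.57 higher at 72 h than at 0 h. At 24 h it was 0.59 lower, with an SD of that difference of 0.51 from the spread of both pairs. Ranked by FPKM among all rows, Fgg moved from a mean rank of 8139 at 0 h to 548 at 72 h.

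Fgb, the β chain gene (ENSMUSG00000033831, chr3:83040141-83049863, minus strand), followed the same course at a lower level. Its FPKM were 0.375 and 0.446 at 0 h, 0.245 and 0.174 after 24 h, 0.608 and 0.646 after 48 h, and 7.87 and 8.12 after 72 h. Only the 72 h libraries exceeded 1 FPKM, so Fgb passed the filter on low values, 1 FPKM in 2 or more libraries, solely through the time at which it was high. The 72 h mean of 7.99 ± 0.176 was 19.5 times the 0 h mean of 0.411 ± 0.0506 (SD, n = 2). Its log2 differences from 0 h were -0.22 at 24 h, 0.21 at 48 h and 2.67 at 72 h. The 48 h value turned to -0.0605 when the libraries were quantile normalised, so no direction is read from it. Fgg exceeded Fgb in every library: the ratio of their FPKM was 4.46 and 7.58 at 0 h, 5.25 and 7.23 after 24 h, 6.88 and 7.09 after 48 h, and 10.2 and 9.997 after 72 h.

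The α chain gene Fga could not be measured alone. The shared row (ENSMUSG00000027998, chr3:83026076-83072363, plus strand) carries the Plrg1 identifier, spans both Fga and Plrg1, and encloses the Fgb row on the other strand. Its FPKM were 21.2 and 23.4 at 0 h, 21.3 and 21.5 after 24 h, 26.7 and 29.4 after 48 h, and 121.9 and 121.5 after 72 h. The 24 h and 0 h libraries overlapped, and both 72 h libraries were above all others. The ratio of the 72 h to the 0 h mean was 5.46, and the log2 difference was 2.40. How much of this value belongs to Fga, to Plrg1 or, were fragments counted without regard to strand, to Fgb cannot be told apart.

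**Figure D1:**
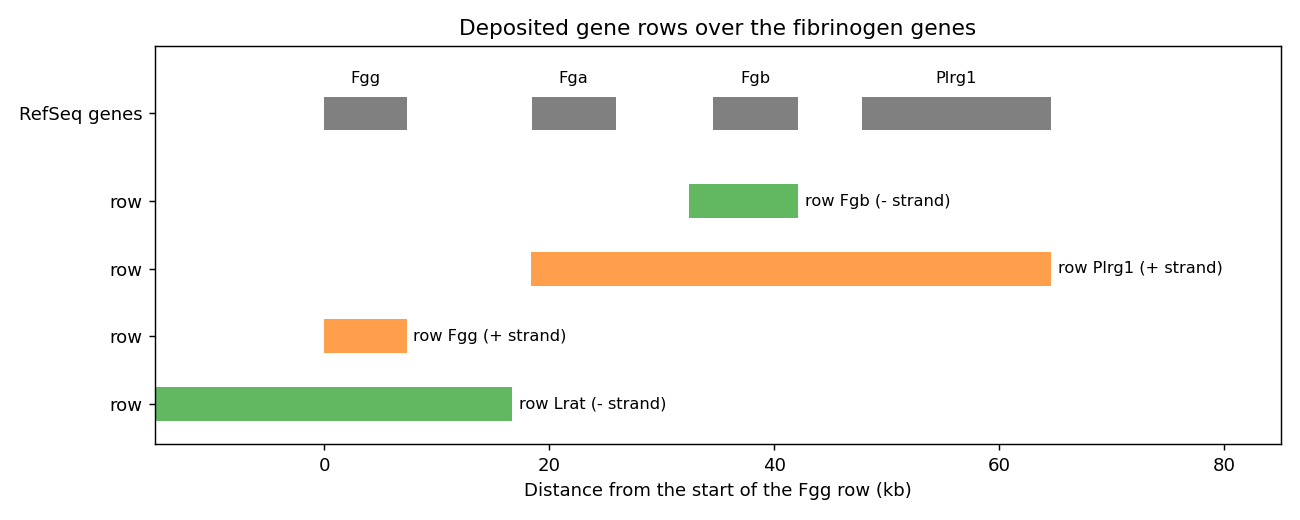
Deposited gene rows (coloured bars, orange for the plus and green for the minus strand) under the RefSeq genes of the fibrinogen cluster (grey bars), by distance in kb from the start of the Fgg row; the Lrat row runs on beyond the left edge. The row named Plrg1 runs from 18.35 to 64.64 kb, over Fga, Fgb and Plrg1, and the Lrat row reaches over all of Fgg to 16.71 kb.

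The row of Lrat, which encodes a retinol esterifying enzyme, covers the whole of Fgg on the opposite strand. Lrat fell at each time in limma's moderated test with Benjamini-Hochberg adjustment over 10757 tested rows, with differences of -0.52 at 24 h, -0.72 at 48 h and -0.94 at 72 h (adjusted p 0.00359, 0.000458 and 8.51e-05). Its mean FPKM went from 1.32 ± 0.142 at 0 h to 0.208 ± 0.0891 at 72 h (SD, n = 2), while that of Fgg went up to 80.5. Mean FPKM of Lrat were 0.619 ± 0.199 at 24 h and 0.402 ± 0.0212 at 48 h (SD, n = 2). Lrat thus passed the filter on low values only through the 0 h libraries, and the filter partly fixed the direction of its fall. The Fgb row runs 2105 bases past its gene, and the sources used here do not say whether fragments were counted by strand.

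Plaur had the largest ratio to 0 h of these rows at 24 h. The gene (ENSMUSG00000046223, chr7:24459756-24476246, plus strand) encodes the receptor that holds urokinase at the cell surface. Its FPKM were 1.33 and 1.16 at 0 h, 27.8 and 24.9 after 24 h, 37.6 and 36.2 after 48 h, and 43.2 and 43.6 after 72 h. No pair of times overlapped, and most of the difference was present at 24 h. Mean FPKM were 1.25 ± 0.12 at 0 h, 26.4 ± 2.01 at 24 h, 36.9 ± 0.999 at 48 h and 43.4 ± 0.275 at 72 h (SD, n = 2). The later means were 21.1, 29.6 and 34.8 times the 0 h mean, log2 differences of 3.60, 4.08 and 4.31. Between 48 and 72 h the log2 difference was 0.23, whereas for Fgg it was 3.92. The Plaur row lies inside a row of 4.89 Mb on the same strand, named Cd79a, which spans 36 genes without a row of their own. The sources used here do not say how fragments were shared between these overlapping rows.

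Plat, which encodes tissue plasminogen activator (ENSMUSG00000031538, chr8:22754741-22782847, plus strand), was higher at each successive time. Its FPKM were 10.9 and 9.91 at 0 h, 47.1 and 46.5 after 24 h, 74.7 and 75.2 after 48 h, and 203 and 215 after 72 h. The 4 pairs of libraries did not overlap, and duplicates differed little beside the differences between times. Mean FPKM were 10.4 ± 0.675 at 0 h and 208.6 ± 8.37 at 72 h (SD, n = 2). The means at 24, 48 and 72 h were 4.51, 7.22 and 20.1 times the 0 h mean, log2 differences of 2.07, 2.74 and 4.20. Its mean rank moved from 4249 at 0 h to 209.5 at 72 h. The row begins 2981 bases before the RefSeq gene.

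Plau, which encodes urokinase (ENSMUSG00000021822, chr14:20834371-20843388, plus strand), had the highest FPKM of these rows at every time and the smallest ratio of 72 h to 0 h. Its FPKM were 196 and 204 at 0 h, 156 and 146 after 24 h, 130.1 and 129.8 after 48 h, and 231 and 239 after 72 h. The 24 h and 48 h libraries lay below both 0 h libraries and the 72 h libraries above them. The means at 24, 48 and 72 h were 0.754, 0.65 and 1.18 times the 0 h mean of 199.8 ± 5.23 (SD, n = 2). The log2 differences of -0.41, -0.62 and 0.23 depended on scaling. With libraries brought to one median they were -0.28, -0.48 and 0.17. With quantile normalisation they were -0.059, -0.0008 and 0.78. Over all tested rows the median difference was -0.12 at 24 h, -0.13 at 48 h and 0.07 at 72 h, and bringing libraries to one median moved it to -0.0007, 0.01 and 0.0015. The mean rank of Plau was 318.5 at 0 h, 331.5 at 24 h, 319 at 48 h and 183.5 at 72 h. The row begins 2291 bases before the RefSeq gene.

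**Figure D2:**
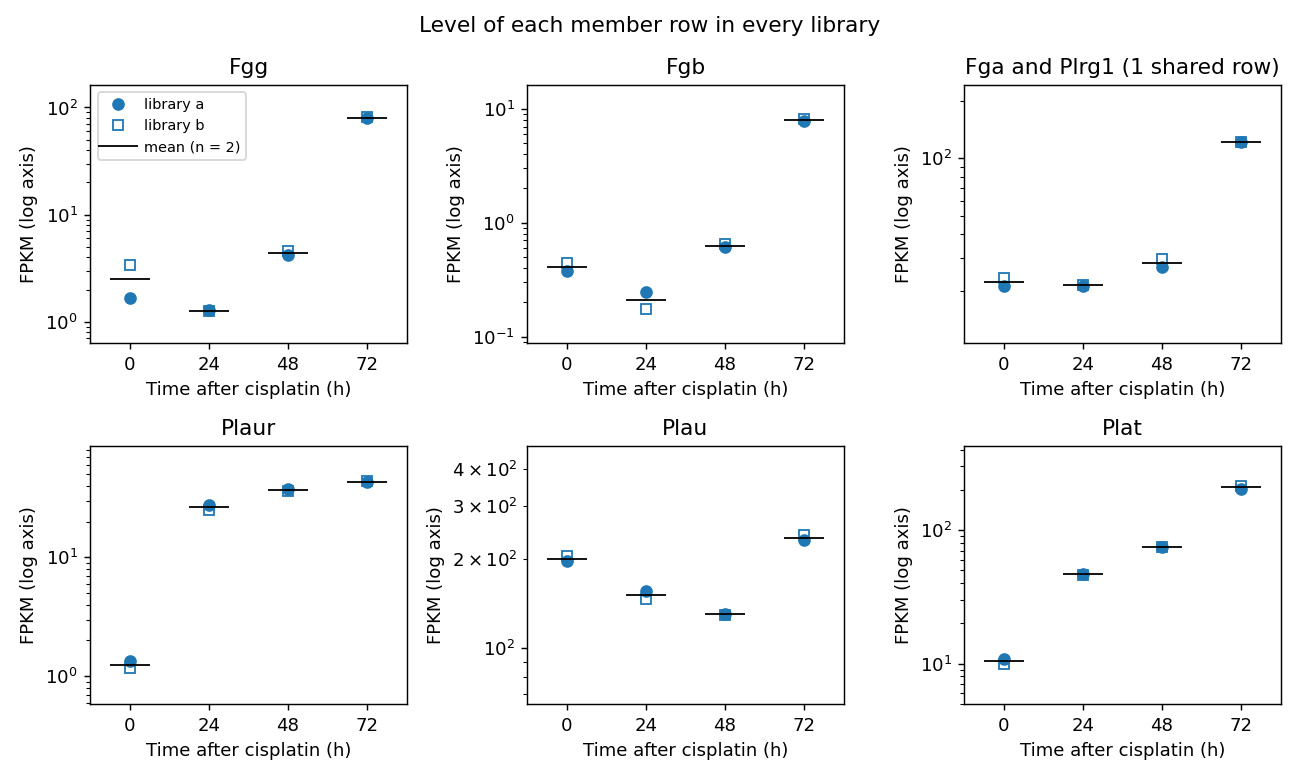
FPKM (log axis, with its own range in each panel) of the 6 rows in the 8 libraries by hours after cisplatin; filled circles are libraries a, open squares libraries b and black lines the mean of 2. The fibrinogen rows stand apart at 72 h (Fgg at 79.9 and 81.2 FPKM), Plaur from 24 h (27.8 and 24.9), Plat at each successive time, and Plau stays between 129.8 and 239.

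The balance between the activators and the receptor was unlike at 0 h and at 72 h. FPKM of Plau were 18.0 and 20.5 times those of Plat at 0 h, 3.30 and 3.14 times after 24 h, 1.74 and 1.73 times after 48 h, and 1.14 and 1.12 times after 72 h. The 2 activator genes thus had nearly equal levels per length at 72 h, while the receptor was lower than both. The rows were listed with unlike lengths, 2343 for Plau, 7498 for Plat and 4039 for Plaur. Those of Plau and Plat begin before their RefSeq genes, so comparisons between genes rest on these lengths. FPKM of Plau over Plaur were 147 and 175 at 0 h, 5.60 and 5.85 after 24 h, 3.46 and 3.59 after 48 h, and 5.35 and 5.49 after 72 h. FPKM of Plat over Plaur were 8.16 and 8.53 at 0 h, 1.70 and 1.86 after 24 h, 1.99 and 2.08 after 48 h, and 4.69 and 4.92 after 72 h. In order of mean FPKM at 0 h, the rows were Plau, the Fga and Plrg1 row, Plat, Fgg, Plaur and Fgb. At 0 h the Fgg and Plaur libraries were close beside the spread of Fgg: the lower Fgg library, 1.67, stood near the higher Plaur library, 1.33. At 72 h the order was Plau, Plat, the Fga and Plrg1 row, Fgg, Plaur and Fgb, with no overlap between neighbours.

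Counted over the 5 rows of single genes, both 24 h libraries were above both 0 h libraries for 2 (Plaur, Plat) and below for 3 (Fgg, Fgb, Plau). At 48 h 4 were above and 1 below, and at 72 h all 5 were above, 4 of them by at least 2-fold in mean FPKM. The 4 at 48 h include Fgb, whose log2 difference at that time changed sign with quantile normalisation. Since these values chose the genes, the counts are only set beside the background. Of all tested rows, 33.5% had non-overlapping libraries above 0 h and 48.3% below at 24 h, 36.5% and 49.9% after 48 h, and 46.4% and 40.2% after 72 h. The median log2 difference of the 5 rows was -0.22 at 24 h, 0.65 at 48 h and 4.20 at 72 h.

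Genes that act with the members were tested in 3 lists chosen with earlier results of these data known. All 8 libraries entered 1 limma fit on log2(FPKM + 1), with Benjamini-Hochberg adjustment over all tested rows and a threshold of 0.05, and "rose" and "fell" below mean past that threshold. By that rule, 25.8% of all tested rows rose and 40.0% fell at 24 h, 28.5% rose and 42.1% fell at 48 h, and 37.6% rose and 32.4% fell at 72 h. No test of a list as a whole was run, and its counts stand beside these shares.

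Plasminogen activation and its control formed a list of 30 genes, members left out, of which 29 had a row and 20 were tested. At 24 h 10 rose and 7 fell, at 48 h 11 rose and 7 fell, and at 72 h 12 rose and 5 fell. Median log2 differences were 0.21, 0.67 and 1.24. Of the 20, 3 were under 1 FPKM in both 0 h libraries and so entered through later times, Itgam and Mmp3 among them. All 3 rose at each time, a direction that the filter partly fixed. Kept to the 12 tested genes whose rows do not reach past or span another gene, 4 rose and 6 fell at 24 h, 5 rose and 6 fell at 48 h, and 6 rose and 4 fell at 72 h. The rows of S100a10, Anxa2, Serpine2 and Itgam are among those that reach past their gene. The plasminogen gene Plg itself was between 0 and 0.181 FPKM in all libraries, so RNA of the zymogen on which both activators act was at or near 0.

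Serpine2, which encodes protease nexin-1, an inhibitor of thrombin and plasminogen activators, rose by 1.39, 1.23 and 1.69 (SE 0.272, limma adjusted p 0.00357, 0.00566 and 0.00123). Its duplicates were uneven, with 1.34 and 0.639 FPKM at 0 h and 4.12 and 6.83 after 72 h. Serpinb2, which encodes PAI-2, was too low to be tested, at 0 and 0.0117 FPKM at 0 h and 0.979 and 0.865 after 72 h.

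S100a10 and Anxa2 encode the subunits of a complex that binds plasminogen and tissue plasminogen activator. S100a10 had 69.7 and 68.1 FPKM at 0 h and 580.1 and 595 after 72 h, and rose by 1.76, 2.24 and 3.07 at the successive times (SE 0.0709, largest limma adjusted p 2.69e-07). Anxa2 had 26.2 and 24.5 FPKM at 0 h and 267.8 and 282 after 72 h, and rose by 1.37, 2.03 and 3.39 (SE 0.0634, largest limma adjusted p 4.74e-07). For both genes every later library was above the 0 h libraries and the 72 h libraries were highest. Itgam, which encodes an integrin chain of myeloid cells that pairs with the urokinase receptor, rose by 1.22, 1.59 and 3.14 from 0.173 and 0.119 FPKM to 8.97 and 9.19 (largest limma adjusted p 1.04e-05). Plgrkt, which encodes another plasminogen receptor, fell at 48 h and did not pass at the other times: its log2 differences were -0.37, -0.47 and 0.02 (SE 0.158, limma adjusted p 0.0639, 0.0245 and 0.903).

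The genes of this list that fell furthest were Pzp, Serpinf2 and Hpn. Serpinf2, which encodes α2-antiplasmin, the main inhibitor of plasmin, had 134.9 and 137.6 FPKM at 0 h, 50.1 and 49.3 after 24 h, 29.1 and 28.5 after 48 h, and 9.05 and 8.86 after 72 h. Each pair lay below the pair before it, and the log2 differences were -1.44, -2.21 and -3.79 (SE 0.0603, limma adjusted p 3.13e-07, 2.21e-08 and 6.17e-10). Pzp, which encodes a broad protease inhibitor of the α2-macroglobulin family, fell, with log2 differences of -2.88, -3.34 and -3.87 (SE 0.0948, largest limma adjusted p 9.59e-08). Hpn, which encodes hepsin, a membrane serine protease that can activate urokinase, fell, with log2 differences of -1.52, -2.80 and -2.31 (SE 0.0861, largest limma adjusted p 1.3e-06). Hpn was lowest at 48 h, with 23.7 and 26.5 FPKM, and stood at 33.5 and 38.1 after 72 h.

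Coagulation and its control formed a list of 32 genes, of which 29 had a row and 14 were tested. At 24 h 6 rose and 4 fell, at 48 h 8 rose and 6 fell, and at 72 h 9 rose and 4 fell, with median log2 differences of 0.06, 0.50 and 1.03. The 48 h split was 8 rising and 3 falling after quantile normalisation. Of the 14, 2 were under 1 FPKM in both 0 h libraries (Procr and F13a1) and so entered through later times. Both rose at each time, a direction that the filter partly fixed. Prothrombin (F2) was at 0.0105 to 0.0655 FPKM, F7 at 0 to 0.103 and F9 at 0 to 0.028, while F11 was listed at 0 throughout. Thbd, which encodes thrombomodulin, had no row of its own.

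F3 encodes tissue factor, the cell-surface trigger of coagulation. Its FPKM were 4.93 and 4.33 at 0 h, 4.36 and 5.49 after 24 h, 8.59 and 8.50 after 48 h, and 13.8 and 15.9 after 72 h. The 24 h libraries overlapped those at 0 h, with a log2 difference of 0.07 (limma adjusted p 0.62). F3 rose by 0.76 at 48 h and 1.49 at 72 h (SE 0.116, limma adjusted p 0.000306 and 3.85e-06). F2r, which encodes the thrombin receptor PAR1, rose at each time by 1.59, 2.54 and 3.19, from 8.54 and 8.02 FPKM to 84.4 and 83.2 (SE 0.0722, largest limma adjusted p 4.38e-07). Procr, which encodes the endothelial protein C receptor, rose by 1.99, 2.43 and 2.42 (SE 0.089, largest limma adjusted p 4.06e-07).

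Pros1, which encodes protein S, the cofactor of activated protein C, rose by 1.58, 1.91 and 2.23 with wide errors (SE 0.517, limma adjusted p 0.0471, 0.0242 and 0.0145). Its duplicates differed, with 1.64 and 4.01 FPKM at 0 h and 14.4 and 6.67 after 24 h. Without 0 h library a the call was lost at each time, with limma adjusted p of 0.173, 0.0942 and 0.0588. Proc, which encodes protein C itself, fell (log2 differences -0.88, -1.84 and -2.21), from 39.7 and 40.5 FPKM to 7.70 and 8.01 (SE 0.101, largest limma adjusted p 6.88e-05). F13b, which encodes the carrier subunit of the fibrin cross-linking factor XIII, fell (log2 differences -1.25, -1.91 and -2.87), from 22.7 and 24.0 FPKM to 2.28 and 2.38 (SE 0.123, largest limma adjusted p 2.63e-05). Tfpi2, which encodes an inhibitor of plasmin and other serine proteases, differed by -0.17 at 24 h (limma adjusted p 0.2) and fell at 48 h (-0.68) and 72 h (-1.10). Tgm2, which encodes the tissue transglutaminase that cross-links fibrin and matrix proteins, fell at 24 h (-0.60) and 48 h (-0.32) and rose at 72 h (0.56). The 48 h value of Tgm2 was 0.11 after quantile normalisation.

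The interleukin 6 family and acute phase list held 39 genes, of which 34 had a row and 26 were tested. At 24 h 14 rose and 5 fell, at 48 h 16 rose and 4 fell, and at 72 h 21 rose and 4 fell. Median log2 differences were 0.45, 0.63 and 1.40. Of the 26, 12 were under 1 FPKM in both 0 h libraries and entered through later times. Their direction was thus partly fixed by the filter. Il6, Lif, Socs3, Lrg1 and Saa3 are among these 12, so any p-value given for them carries that limit. All 12 are among those that rose at 72 h. Without them, a count added after the values were seen, 6 of 14 rose and 5 fell at 24 h, 6 rose and 4 fell at 48 h, and 9 rose and 4 fell at 72 h. Il6, which encodes the cytokine itself, rose from a mean of 0.0108 FPKM at 0 h to 1.02, 1.67 and 1.84 (largest limma adjusted p 3.26e-05). Lif, which encodes a cytokine of the same family, had 0.038 and 0.0576 FPKM at 0 h and 4.04 and 4.68 after 72 h, and rose by 1.79, 2.20 and 2.35 (largest limma adjusted p 1.53e-06).

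Socs3, which encodes the feedback inhibitor of this pathway, had 0.58 and 0.429 FPKM at 0 h, 9.03 and 8.56 after 24 h, 12.3 and 11.6 after 48 h, and 16.3 and 15.7 after 72 h. All later libraries were above those at 0 h, and the log2 differences were 2.70, 3.11 and 3.50 (SE 0.0878, limma adjusted p 9.31e-08, 2.58e-08 and 4.75e-09). Stat3, which encodes the transcription factor of the pathway, rose by 0.50, 0.61 and 1.30 (SE 0.115, limma adjusted p 0.00429, 0.0012 and 9.36e-06), from 13.6 and 14.9 FPKM to 34.7 and 38.4. Cebpb, which encodes a C/EBP transcription factor of the acute phase, rose by 2.02, 1.85 and 2.96 (largest limma adjusted p 5.18e-07). Lifr, which encodes the receptor of the cytokine made from Lif, fell, with log2 differences of -0.79, -0.77 and -0.80 (largest limma adjusted p 0.000219).

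C3, which encodes the central complement component, had 2.70 and 3.93 FPKM at 0 h, 2.99 and 2.74 after 24 h, 6.22 and 6.92 after 48 h, and 47.4 and 46.7 after 72 h. Its 24 h libraries overlapped those at 0 h (log2 difference -0.15, limma adjusted p 0.35), and it rose by 0.82 at 48 h and 3.49 at 72 h (SE 0.13, limma adjusted p 0.000389 and 3.9e-08). Lrg1, which encodes a secreted leucine-rich glycoprotein, rose by 0.84, 1.23 and 3.63 (SE 0.091, largest limma adjusted p 4.85e-05). Cp, which encodes the copper carrier ceruloplasmin, rose by 1.71, 1.87 and 3.02, from 4.67 and 5.75 FPKM to 47.6 and 50.5 (largest limma adjusted p 1.08e-06). Saa3, which encodes a serum amyloid A protein, was listed at 0 in both 0 h libraries, which can be a failed estimate. It had 5.40 and 5.01 FPKM at 24 h, 1.30 and 2.41 after 48 h, and 5.14 and 5.13 after 72 h.

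**Figure D3:**
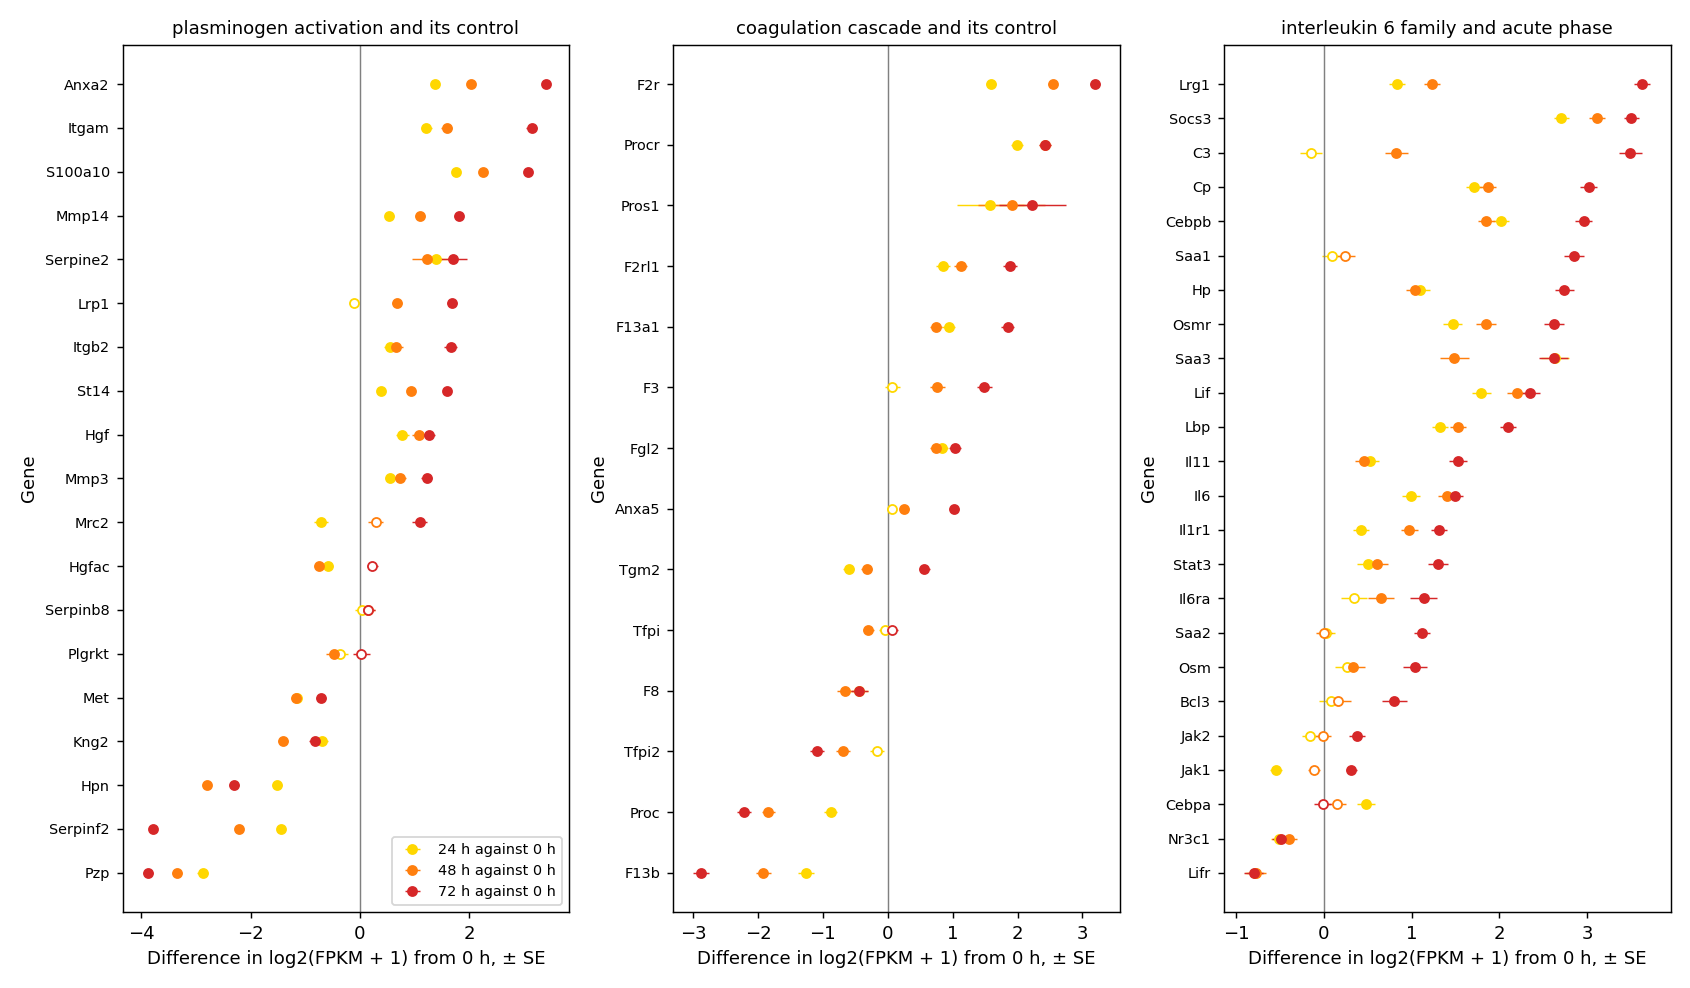
Difference in mean log2(FPKM + 1) from 0 h, with its standard error from the limma fit (hidden by the point where small), of the tested genes of the 3 lists that are reported here, ordered by the 72 h value; yellow is 24 h, orange 48 h and red 72 h, and open points missed an adjusted p of 0.05. Anxa2 lies at 1.37, 2.03 and 3.39 and Serpinf2 at -1.44, -2.21 and -3.79, while C3 is open at 24 h and lies at 3.49 at 72 h.

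The genes next to the members did not share one course. The 3 nearest named rows on each side of the fibrinogen cluster and of each other member came to 24. Left out here is the row of Fga and Plrg1, since it holds a member, which leaves 23 rows, 13 of them tested. At 24 h 3 rose and 6 fell, at 48 h 2 rose and 6 fell, and at 72 h 4 rose and 3 fell. Those that fell include Lrat at each time, a direction that the filter partly fixed. For all tested rows the rising shares in time order were 25.8%, 28.5% and 37.6%, and the falling shares 40.0%, 42.1% and 32.4%. Whether the 13 neighbours differed from these shares was not tested, so nothing particular to these places in the genome is read from the counts. With the shared row, 14 were tested, with 3 rising and 6 falling after 24 h, the same numbers after 48 h, and 5 rising against 3 falling after 72 h. On that count the 48 h split was 7 rising and 5 falling with libraries brought to one median, and 8 and 5 with quantile normalisation. On the same count without 0 h library a, 5 neighbours passed at 24 h and 5 at 72 h. Around the fibrinogen cluster, Rbm46, Npy2r, Dchs2 and Sfrp2 were too low to be tested. Near Plat, Polb, which encodes a DNA repair polymerase, rose by 0.53, 0.50 and 0.61, and Kat6a, which encodes a histone acetyltransferase, differed by 0.03, 0.19 and 0.15 (limma adjusted p 0.709, 0.0508 and 0.114). Near Plau, Adk, which encodes adenosine kinase, fell (-0.73, -1.32 and -1.44), and Vcl, which encodes the adhesion protein vinculin, rose by 0.76 at 72 h. Near Plaur, Smg9 fell at 24 h (-0.48) and 48 h (-0.55), and the row of Cadm4, which also spans Zfp428, fell at each time (-0.45, -0.63 and -0.45). Irgq passed at no time (0.05, 0.12 and 0.13). Pinlyp and Kcnn4 were too low to be tested. Mean FPKM of Pinlyp were 0.00718 at 0 h and 0.409, 0.724 and 0.838 at the later times. Those of Kcnn4 were 0.113 at 0 h and 0.203, 0.118 and 0.69 later.

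Rows whose course was most like that of a member were ranked by Pearson's r of log2(FPKM + 1) over the 8 libraries, among 3126 rows with a largest difference between time means of at least 1. With 4 times and 2 libraries each, such values are high for any shared course and are given as a description. For Fgg the nearest were Slco2a1 (r 0.996), C3 (0.996), Ucp2 (0.995) and Cpe (0.995). Their mean FPKM, like those of Fgg, were lowest at 24 h and highest at 72 h, a likeness that follows from how they were picked. Mean FPKM of C3 went from 3.32 at 0 h through 2.86 and 6.57 to 47.0, and its 24 h libraries overlapped those at 0 h. For Fgb they were Spryd3 (0.996), Spryd4 (0.994), Selplg (0.994) and Smad3 (0.993). For Plaur they were Adamts4, Btg2, Cdkn1a and Pvr, with r of 0.998 or above. Mean FPKM of Cdkn1a, which encodes the cell cycle inhibitor p21, went from 1.50 at 0 h to 53.3, 91.9 and 97.4. For Plat they were Akap12 (0.999), Ms4a6c (0.998), Slc25a24 (0.998) and Itpripl2 (0.998), with mean FPKM of Akap12 going from 1.28 to 11.8, 20.5 and 67.5. For Plau the nearest were less close: Lamtor5, Klhdc8a and Acot7 at 0.982 and Angptl7 at 0.979.

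Hepatocytes are the main source of fibrinogen in the body. Of 17 hepatocyte markers 15 had a row and 7 of these were under 1 FPKM in all libraries. The summed FPKM of the list was 191 and 216 at 0 h, 109.8 and 95.3 after 24 h, 36.1 and 37.6 after 48 h, and 54.9 and 58.8 after 72 h. Most of the sum came from Ttr and from the row of Serpina1a, which spans other genes of that family. Without the Serpina1a row, left out after the values were seen, the sum was 103 and 117 FPKM at 0 h. It was then 63.9 and 54.4 after 24 h, 23.3 and 22.9 after 48 h, and 34.7 and 36.9 after 72 h. The part of hepatocyte RNA in Fgg and Fgb was not tested. Alb, which encodes albumin, was at 2.48 and 2.95 FPKM at 0 h and at 0.347 and 0.28 after 72 h. Mup3 was at 0 in all libraries, and Cps1 and Mup20 did not exceed 0.00797 FPKM. At 72 h 8 of the 15 had both libraries below those at 0 h and 3 had both above. Of all tested rows, 40.2% lay below in that way and 46.4% above. The 3 were Apoc3, at 10.04 and 10.61 FPKM at 0 h, 5.20 and 5.62 after 48 h and 21.0 and 22.7 after 72 h, Serpina3k, listed at 0 in both 0 h libraries and at 0.572 and 1.07 after 72 h, and Ahsg, listed at 0 and then at 0.0163 and 0.0174. Platelets carry fibrinogen protein, and 8 of 12 platelet and megakaryocyte markers had a row, with summed FPKM of 4.45 and 4.61 at 0 h, 3.93 and 4.22 after 24 h, 5.07 and 4.85 after 48 h, and 8.08 and 7.34 after 72 h. Pf4 made up most of that sum, and 6 of the 8 stayed under 1 FPKM.

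Marker sums of several other cell types were also higher at 72 h. Neutrophil markers (13 of 13 with a row) summed to 1.24 and 1.35 FPKM at 0 h, 29.4 and 27.6 after 24 h, 27.3 and 32.9 after 48 h, and 78.6 and 76.5 after 72 h. S100a8 led this list with 32.8 and 30.9 FPKM at 72 h, whereas Mpo and Elane were at or near 0. Macrophage and monocyte markers (12 of 14) summed to 786 and 727 FPKM at 0 h, 659.6 and 668.7 after 24 h, 712.8 and 696.5 after 48 h, and 1024 and 1036 after 72 h. Most of it came from the row of Ly6c2, which also spans Ly6i, Ly6a, Ly6c1, Ly6a2 and Ly6g2. Without that row, left out after the values were seen, the other 11 summed to 61.3 and 54.6 FPKM at 0 h, 84.8 and 70.4 after 24 h, 91.4 and 91.3 after 48 h, and 224 and 234 after 72 h. At 72 h 11 of these 12 had both libraries above those at 0 h, beside 46.4% of all tested rows. Lyz2 stood at 78.9 and 79.5 FPKM against 19.5 and 13.8 at 0 h. Endothelial cells are a known source of Plat and Procr, and their markers (13 of 13) summed to 122 and 119 FPKM at 0 h, 137 and 124 after 24 h, 160.1 and 142.9 after 48 h, and 253 and 260 after 72 h. Fibroblast and pericyte markers (8 of 8) summed to 62.9 and 60.0 FPKM at 0 h, 97.6 and 79.8 after 24 h, 143 and 138 after 48 h, and 264 and 263 after 72 h. Podocyte markers (8 of 8) summed to 56.1 and 51.3 FPKM at 0 h, 68.9 and 72.7 after 24 h, 76.2 and 73.0 after 48 h, and 80.3 and 81.5 after 72 h. At 72 h 7 of them had both libraries above those at 0 h. Clic5 was below, with 20.7 and 20.1 FPKM at 0 h and 11.5 and 11.3 after 72 h. Markers of the thick ascending limb and distal nephron (6 of 7) summed to 561 and 542 FPKM at 0 h, 320 and 324 after 24 h, 220 and 213 after 48 h, and 260 and 270 after 72 h. At 72 h 5 of these 6 had both libraries below those at 0 h. Aqp2 was above, with 37.2 and 29.2 FPKM at 0 h and 91.2 and 102 after 72 h. Of all tested rows, 46.4% lay above in that way and 40.2% below. Itgam, named above, is itself on the macrophage list. The part of these cells in the levels of the members was not tested.

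**Figure D4:**
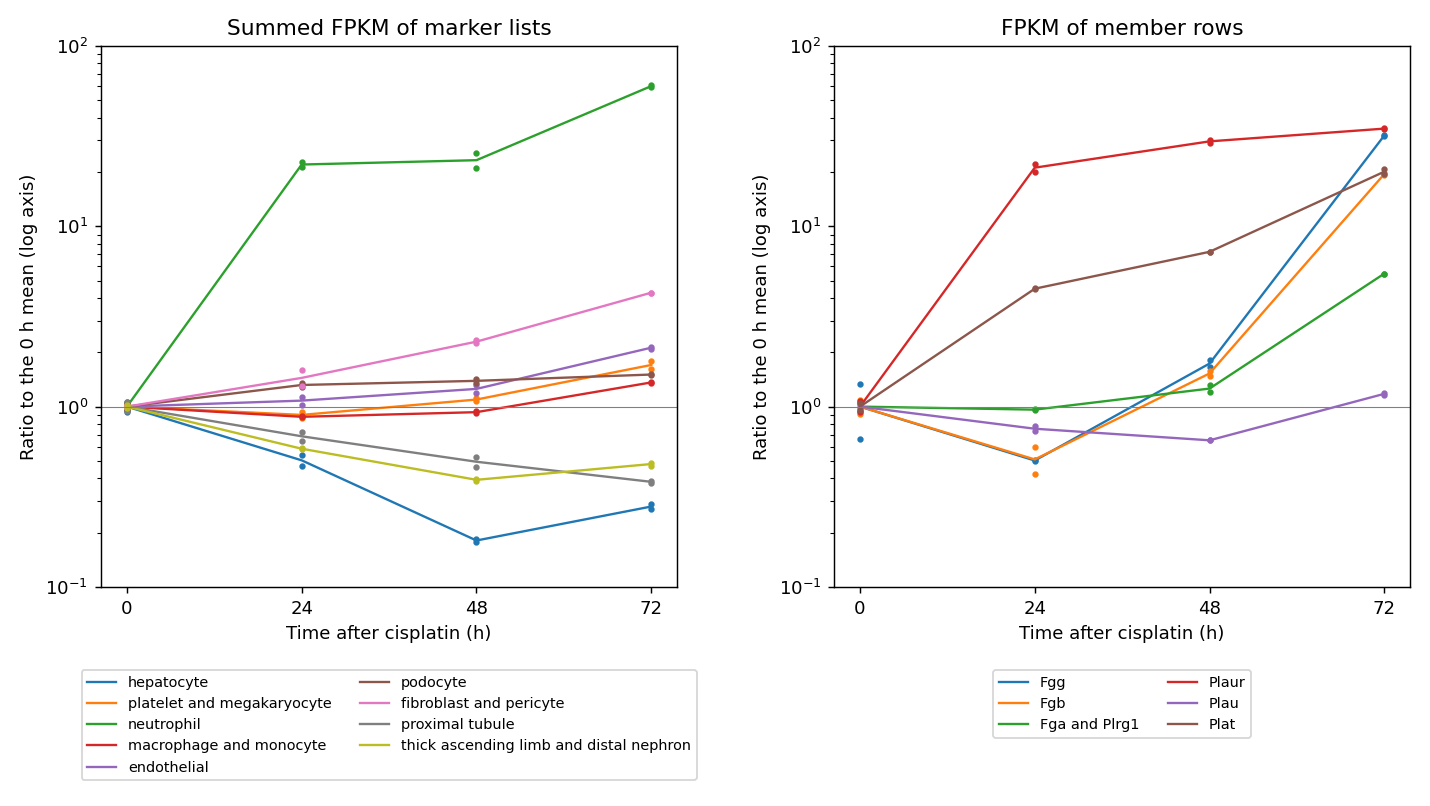
Ratio to the 0 h mean (log axis) by hours after cisplatin, of the summed FPKM of 9 cell type marker lists (left) and of the FPKM of the 6 rows (right); points are libraries and lines join the means of 2. Hepatocyte and proximal tubule sums lie below 1 at all later times, the neutrophil sum lies above the other 8 lists, and Fgg goes from 1.73 after 48 h to 31.9 after 72 h.

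Circular RNA was also counted in these libraries. None of the 2163 circular RNAs in the authors' table overlapped any of the 6 genes, so no circular form of a member was compared.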

How the data were processed

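Linear RNA was analysed in 8 libraries, 2 at each of 4 times. The authors deposited FPKM per gene row, named so per the file headers, and circular RNA counts per back-splice pair, which totalled 13603 to 21024 per library. Per the submitters' processing notes the tools included Bowtie 0.12.2, TopHat2 and Cufflinks and the build was mm10, with roles and order unstated, and the extract protocol names a kit for small RNA. The columns' letters a and b match no replicate label, so columns were assigned to times only. Another 8 columns with a second measure of the circular RNAs were not used.

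The 6 genes and the lists were chosen with earlier results of these data known. Rows were named through their identifiers (19742 of 21874) and set against RefSeq gene spans with a tolerance of 2000 bases. The 10757 rows that reached 1 FPKM in 2 or more libraries were tested with limma 3.58.1 in R 4.3.3 on log2(FPKM + 1), a pseudocount of 1, with an intensity trend and robust estimation, 2-sided, with Benjamini-Hochberg adjustment within each comparison. The procedure was tested on simulated data. The series calls its duplicates biological without naming separate animals, so p-values reflect only how these samples varied, which may be technical.

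Named in each list and comparison were up to 3 called genes each way by size of change, with non-overlapping libraries, and Serpinb2, Plg, F3, Thbd, Serpine2, Anxa2, S100a10, Socs3 and Stat3. Some genes that the rule names are not reported here, though they stay in the counts. Other list genes at or near 0, Plgrkt, Mmp3, F13a1, Il6, and single markers were named after their values were seen. For likeness, the 4 nearest rows are named per gene, and for neighbours examples are given. The alternatives were other pseudocounts, filters, scalings and limma settings, only rows that keep to their own gene, a block, and leaving out each library. Marker sums without their largest row, neighbours without the shared row and list counts by level at 0 h were added after seeing the data.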

Additional observations from a re-analysis of the deposited data

How the results depend on the processing

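Among 180 alternative values of the counts of called genes, leaving aside those added after seeing the data, 173 stayed within 1.5 times the count in the report. Of 1197 alternative values of single list genes, 1181 kept their side of the threshold, of which 3, for uncalled 24 h values of C3 and F3, changed sign. Of the rest, 14 lost the call, 1 (C3 at 24 h without 0 h library a, -0.35) gained it and 1 (Tgm2 at 48 h, 0.11 with quantile normalisation) reversed. With only rows that keep to their own gene, fewer genes are tested, and the plasminogen list had 10, 11 and 10 called genes at 24, 48 and 72 h in place of 17, 18 and 17, while the neighbours had 4 at 48 h and 5 at 72 h in place of 9 and 8. Leaving out 1 library gave 5 to 9 called neighbours at 24 h and 5 to 9 at 72 h, with the lowest value without 0 h library a. Of 105 alternative values of the members, 78 moved by less than the spread between libraries, 26 moved further and 1 reversed. With 2 libraries a time, leaving out 1 cannot move a mean by more than that spread, so those values say nothing about stability. All values that moved further came from the pseudocount of 0.1 or a change of scaling. At 72 h, a pseudocount of 0.1 gave log2 differences of 3.99 for Fgb, 5.02 for Plaur and 4.32 for Plat. The same median in every library gave 2.61 for Fgb and 0.17 for Plau, and quantile normalisation gave 2.35 for Fgb, 0.78 for Plau and 4.43 for Plat. Quantile normalisation reversed Fgb at 48 h, to -0.0605. The cause of these shifts was not tested. Added after seeing the data, a count over only genes with at least 1 FPKM in a 0 h library (fewer genes) gave 11, 10 and 13 called genes of the interleukin 6 list in place of 19, 20 and 25.

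The labels do not say whether the column letters pair libraries. Deviations of libraries with the same letter correlated between -0.24 and 0.393 across pairs of times, with no common sign, which does not settle it. With the letters as a replicate block, the plasminogen list had 17 called genes at 24 h, as without it, and the coagulation list 9 in place of 10, because Pros1 had an adjusted p of 0.0813 in limma. The alternatives planned for circular RNA were not run, since none lies in a member gene. FPKM keep no depth, so the error of low rows such as Fgb at 0 h is unknown.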
